A study of Mus musculus with 27 samples.

Results

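Genes of nitric oxide and superoxide production were followed in the colon of Il10 knockout and wild-type mice. The list held 9 genes: the inducible nitric oxide synthase Nos2, the oxidase genes Duox2, Duoxa2, Nox1, Cybb, Cyba and Ncf4, and the arginases Arg1 and Arg2. The members were all probe sets annotated to them. These were 10 probe sets of 7 genes, of 45037 probe sets and 18193 genes in all. The annotation used here named no probe set for Duox2 or Nox1, which are not analysed here.

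Nitric oxide synthases make nitric oxide from arginine, and Nos2 is the form that immune stimuli switch on in macrophages and in gut epithelium. NADPH oxidases pass electrons to oxygen: Cybb and Cyba together form the membrane core of the phagocyte enzyme, Ncf4 encodes its regulatory subunit p40phox, and Duoxa2 encodes the factor that brings the epithelial oxidase Duox2 to the cell surface. Arginases split arginine into ornithine and urea and so draw on the same substrate as Nos2. Arg1 is the cytosolic form, known from liver and from macrophages, and Arg2 is mitochondrial.

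RNA from full-thickness colon was hybridized to 27 arrays, 3 for each of 9 groups. The groups were Il10-/- mice in conventional housing (label CC, read by elimination from the other 2 codes), Il10-/- mice in specific pathogen free housing (SPF), and wild types in conventional housing (WT), each at 7, 9 and 12 weeks of age. Both knockout groups lack the same cytokine gene, which restrains inflammation, and the samples used here hold no SPF wild types, so SPF knockouts differ from wild types in genotype and housing together. The strain, the knockout allele and any pooling of animals are not given in the labels, and the arrays of a group were chosen by the authors for colon length and damage. A group is named here by age and label, so 9CC is the conventional knockouts at 9 weeks.

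All values are log2 expression as the authors normalized it, with array medians between 4.92 and 4.99. Differences are log2 differences of group means ± SE from 1 limma fit of all arrays, and a gene was called at an adjusted p under 0.05 over all genes. The number of arrays limits the precision, and the p-values measure the spread between arrays, which may in part be technical. Each gene's spread was pooled over all 9 groups, although groups differed in it: the SD of Nos2 was 0.05 in 12WT and 1.07 in 12SPF. An SE or interval therefore does not give the spread of only the 2 groups compared. It can be too wide for groups of small spread and too narrow for groups of large spread. Il10 read 4.66 to 7.09 in the 18 knockout arrays and 3.51 to 3.83 in the 9 wild-type arrays. The position of its probe set relative to the deletion is not known, so this checks nothing. The array 12WT replicate 2 stood apart in 1 measure of RNA quality, with an actin 3' signal 0.946 (log2) above the 5' signal. Its Gapdh 3' signal was 0.002 above the 5' signal, within the range of the other arrays (-0.143 to 0.108). Markers of colon epithelium were high in every array (14 markers, mean 10.79 to 11.94). They were lowest in 12SPF replicates 1 and 3 (11.08 and 10.79), against 11.82 in 12SPF replicate 2 and 11.56 to 11.81 in 12WT. The part of this drop in the members' differences was not tested. Pancreatic acinar markers (9 markers) had a mean of 7.63 in 7WT replicate 1 and 6.06 in 12SPF replicate 3. In every other array it was at most 5.38, and the part of these cells was not tested either.

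At 9 weeks the conventional knockouts carried more transcript of 6 of the 7 measured genes than wild types. At 12 weeks the SPF knockouts did so for the same 6 genes. Of all genes, 24.0% were called in the first comparison (14.2% higher) and 34.8% in the second (18.2% higher). The largest differences were those of Nos2 and Cybb at 9 weeks and of Nos2 and Duoxa2 at 12 weeks. Arg2 passed the test in no comparison of this fit, and its difference of 9CC from 9WT passed under other choices of arrays. At 7 weeks no member passed against wild types in either kind of knockout (0.506% of genes called in 7CC, 0.055% in 7SPF). In conventional knockouts at 12 weeks none did (0.451% of genes called).

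**Figure D1:**
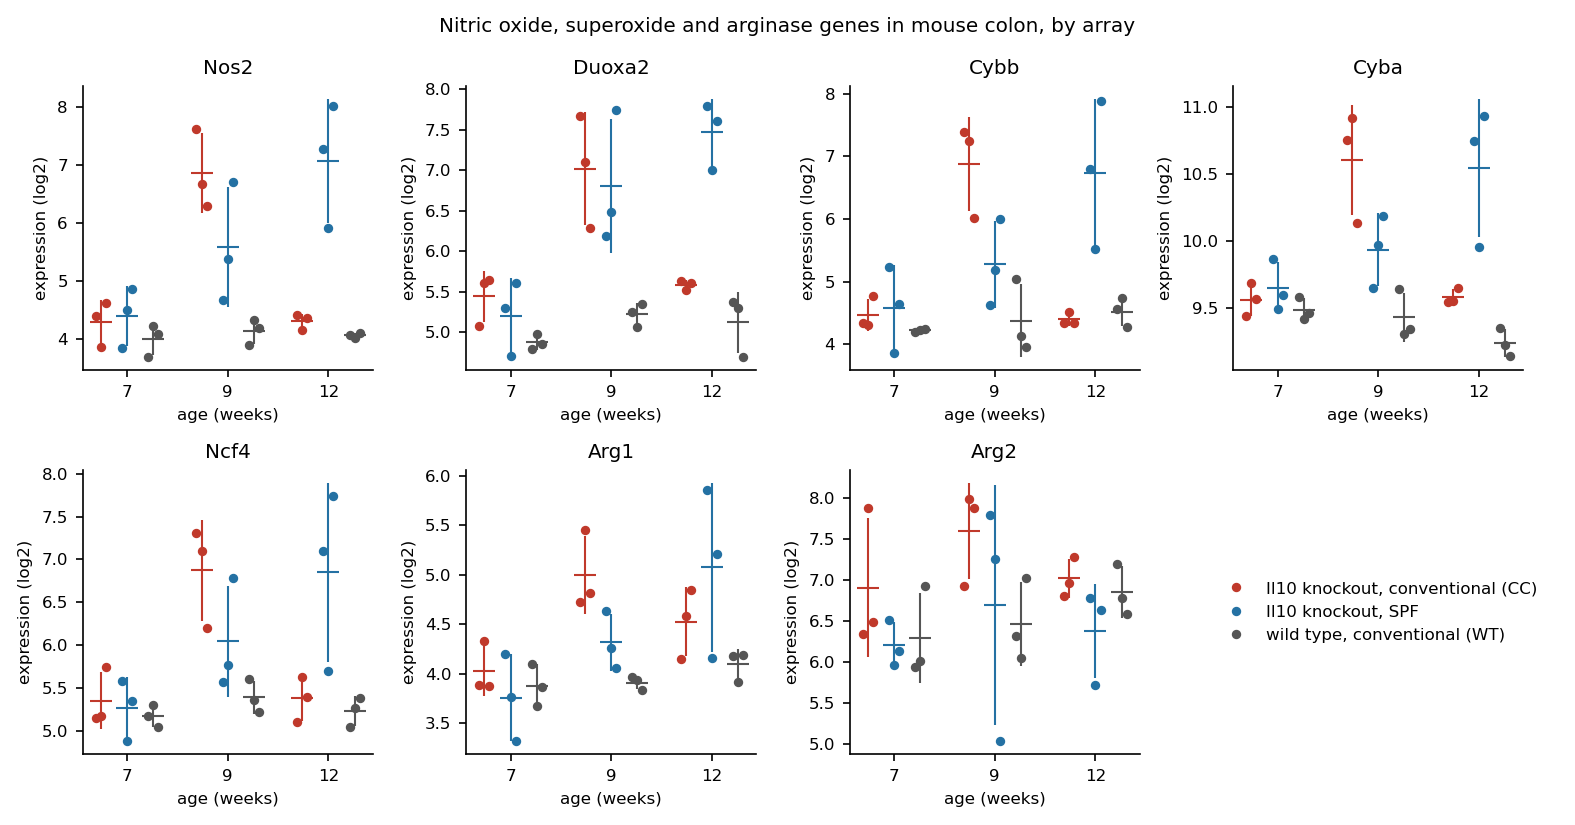
Each point is 1 array (log2 expression), placed by age in weeks and coloured by kind of mice, and bars give the group mean ± SD (n = 3). In Nos2, Duoxa2, Cybb, Cyba and Ncf4 the 9CC and 12SPF arrays stand above the wild types of their age, while the Arg2 arrays of these groups overlap those of wild types. Of all genes, 42.5% stand apart between 9CC and 9WT and 33.5% between 12SPF and 12WT.

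Nos2 was read by 1 probe set, and its gene lies on chromosome 11. It had 7.63, 6.67 and 6.30 in 9CC, 4.67, 5.37 and 6.71 in 9SPF, and 3.89, 4.32 and 4.19 in 9WT. All 9CC arrays and all 9SPF arrays lay above all 9WT arrays. The arrays of 42.5% of all genes stood apart between 9CC and 9WT, and those of 37.4% between 9SPF and 9WT. The difference of 9CC from 9WT was 2.73 ± 0.45, a 6.63-fold higher level (adjusted p = 0.000301). That of 9SPF from 9WT was 1.45 ± 0.45, or 2.73-fold (adjusted p = 0.0383), and it rested in large part on 9SPF replicate 3: without that array it was 0.88 (adjusted p = 0.295), and it was also not called without 9SPF replicate 2 or any 1 of the 9WT arrays.

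At 12 weeks Nos2 had 4.40, 4.16 and 4.35 in 12CC, 7.28, 5.91 and 8.02 in 12SPF, and 4.06, 4.01 and 4.10 in 12WT. The lowest 12SPF array stood above every 12CC and 12WT array. The arrays of 31.1% of all genes stood apart between 12CC and 12SPF, and those of 33.5% between 12SPF and 12WT. 12SPF exceeded 12WT by 3.01 ± 0.45, an 8.06-fold difference (adjusted p = 6.99e-05). 12CC lay below 12SPF by -2.76 ± 0.45 (adjusted p = 0.00137), and its difference from 12WT was 0.25 ± 0.45 (95% interval -0.68 to 1.17, adjusted p = 0.841). At 7 weeks Nos2 averaged 4.28 ± 0.39 in 7CC, 4.40 ± 0.52 in 7SPF and 3.999 ± 0.28 in 7WT (SD, n = 3 each), and the groups overlapped.

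Across the 9 groups the order of Nos2 ran 12SPF (mean 7.07), 9CC (6.86), 9SPF (5.58), 7SPF (4.40), 12CC (4.30), 7CC (4.28), 9WT (4.13), 12WT (4.06) and 7WT (3.999). Each neighbour in this order overlapped the next, so only groups further apart are separated by their arrays.

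Duoxa2, the maturation factor of Duox2, lies on chromosome 2 beside its partner. In RefSeq (GRCm38.p6) the Duox2 record, on the reverse strand, reaches to base 122298740. Duoxa2 begins at base 122298900 on the forward strand, with 159 bases between them. The 300 bases around the Duoxa2 start are shown because they span this shared stretch.

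Duoxa2, chr2:122298650-122298949, forward strand: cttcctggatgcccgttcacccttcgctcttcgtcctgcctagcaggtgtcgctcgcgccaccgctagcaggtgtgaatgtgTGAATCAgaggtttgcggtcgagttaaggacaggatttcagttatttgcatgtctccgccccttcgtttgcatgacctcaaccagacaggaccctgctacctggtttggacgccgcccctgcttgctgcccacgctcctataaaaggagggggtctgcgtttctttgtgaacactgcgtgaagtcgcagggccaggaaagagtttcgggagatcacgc

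The window runs from 250 bases before the start to 50 after it. It was searched on both strands for TTCNNNGAA (STAT sites), TGANTCA (AP-1), the interferon response element written as GAAA, any 2 bases, GAAA, and a loose NF-kB pattern written as GGG, any 5 bases, CC. The capitals mark its only match, an AP-1 string beginning 168 bases before the start. This string lies just outside the 159 bases between the genes, within the Duox2 record. The separate window of Duox2 held no AP-1 match, so that window was not set at base 122298740. Of 32851 promoter windows of this length, 7.81% hold that string, 8.3% the STAT letters, 3.44% the interferon letters and 50.8% the loose NF-kB letters. A match is a description of letters only.

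Duoxa2 had 7.67, 7.10 and 6.28 in 9CC, 6.19, 6.48 and 7.74 in 9SPF, and 5.25, 5.06 and 5.34 in 9WT. The lowest array of either knockout group stood above the highest wild-type array. 9CC exceeded 9WT by 1.80 ± 0.34, or 3.48-fold (adjusted p = 0.000879), and 9SPF exceeded 9WT by 1.58 ± 0.34, or 3.00-fold (adjusted p = 0.00544), a call lost without 9SPF replicate 3 (1.12, adjusted p = 0.0662). The difference between 9CC and 9SPF was 0.21 ± 0.34 (95% interval -0.48 to 0.91, adjusted p = 0.936).

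At 12 weeks Duoxa2 had 5.63, 5.52 and 5.61 in 12CC, 7.79, 7.00 and 7.60 in 12SPF, and 5.37, 5.29 and 4.69 in 12WT. The 3 groups did not overlap, with 12CC between the others. 12SPF exceeded 12WT by 2.34 ± 0.34, or 5.08-fold (adjusted p = 5.02e-05), and 12CC lay below 12SPF by -1.88 ± 0.34 (adjusted p = 0.00192). 12CC differed from 12WT by 0.46 ± 0.34 (adjusted p = 0.533), although its arrays stood apart, as those of 18.1% of all genes did.

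The same held at 7 weeks for Duoxa2. It had 5.08, 5.61 and 5.64 in 7CC, 5.30, 4.70 and 5.61 in 7SPF, and 4.79, 4.98 and 4.86 in 7WT. The 7CC arrays lay above the 7WT arrays, and the difference of 0.57 ± 0.34 did not pass the test (adjusted p = 0.568). The arrays of 18.6% of all genes stood apart between 7CC and 7WT. In the order of the 9 groups, Duoxa2 had a gap between neighbours after 12SPF, 9CC and 9SPF. The lowest of these arrays (6.19) stood above the highest array of the next group, 12CC (5.63), and the other neighbours overlapped. Nos2 showed no such gap, since 9SPF replicate 1 (4.67) lay below the highest 7SPF array (4.86).

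Cybb, the catalytic subunit of the phagocyte oxidase, lies on the X chromosome, and its RefSeq promoter window is shown because it holds several of the motifs searched.

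Cybb, chrX:9469275-9469574, reverse strand (GRCm38.p6): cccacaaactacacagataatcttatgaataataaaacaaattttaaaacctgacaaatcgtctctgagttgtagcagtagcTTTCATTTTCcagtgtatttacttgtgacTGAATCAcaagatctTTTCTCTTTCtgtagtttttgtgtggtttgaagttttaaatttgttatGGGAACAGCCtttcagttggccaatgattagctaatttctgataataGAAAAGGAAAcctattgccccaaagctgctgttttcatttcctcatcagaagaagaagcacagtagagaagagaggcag

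The capitals mark 3 matches to the interferon response letters, which begin 168, 124 and 29 bases before the start, 1 AP-1 string 139 bases before it and 1 NF-kB string 76 bases before it. None of these matches overlap each other. The Cyba window held 5 matches to the NF-kB letters and none to the other motifs. RefSeq's table gave windows for 5 of the 9 listed genes, also including Duox2 and Nox1. No entry was used for Nos2, Ncf4, Arg1 or Arg2.

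Cybb was read by 3 probe sets, and the brightest of them stands for the gene. It had 7.39, 7.24 and 6.01 in 9CC, 4.63, 5.19 and 6.004 in 9SPF, and 5.04, 4.12 and 3.96 in 9WT. The 9CC arrays lay above both other groups, by a narrow margin over 9SPF, and 9SPF overlapped 9WT. 9CC exceeded 9WT by 2.51 ± 0.45, a 5.68-fold difference (adjusted p = 0.000697). The difference of 9SPF from 9WT was 0.90 ± 0.45 (95% interval -0.04 to 1.84, adjusted p = 0.201), and that of 9CC from 9SPF was 1.61 ± 0.45 (adjusted p = 0.227), which passed without 12SPF replicate 2 (adjusted p = 0.0387).

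At 12 weeks Cybb had 4.34, 4.52 and 4.34 in 12CC, 6.80, 5.53 and 7.89 in 12SPF, and 4.56, 4.73 and 4.27 in 12WT. Only 12SPF stood apart. 12SPF exceeded 12WT by 2.22 ± 0.45, or 4.66-fold (adjusted p = 0.000806), and 12CC lay below 12SPF by -2.34 ± 0.45 (adjusted p = 0.00241). The difference of 12CC from 12WT was -0.12 ± 0.45 (95% interval -1.06 to 0.82, adjusted p = 0.935). At 7 weeks the means were 4.47 ± 0.26 in 7CC, 4.58 ± 0.69 in 7SPF and 4.23 ± 0.02 in 7WT (SD, n = 3 each), with no call.

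The other Cybb probe sets moved the same way by less. When all 45037 probe sets were tested together, 9CC against 9WT gave 2.51 ± 0.45, 1.99 ± 0.43 and 1.20 ± 0.35 for the probe sets from the brightest to the dimmest (adjusted p = 0.00079, 0.00303 and 0.0201). In this fit 17.1% of probe sets were called. 12SPF against 12WT gave 2.22 ± 0.45, 2.05 ± 0.43 and 1.29 ± 0.35 in the same order (adjusted p at most 0.00768, 26.4% of probe sets called). 12CC against 12SPF gave -2.34 ± 0.45, -1.67 ± 0.43 and -1.18 ± 0.35 (adjusted p at most 0.0225, 16.7% called). The dimmest had a mean of 3.70 over all arrays and the smallest differences, and 12SPF replicate 2 read 3.31 on it, within the range of 12WT. Pairwise correlations of the 3 over the 27 arrays were 0.919 to 0.946.

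**Figure D2:**
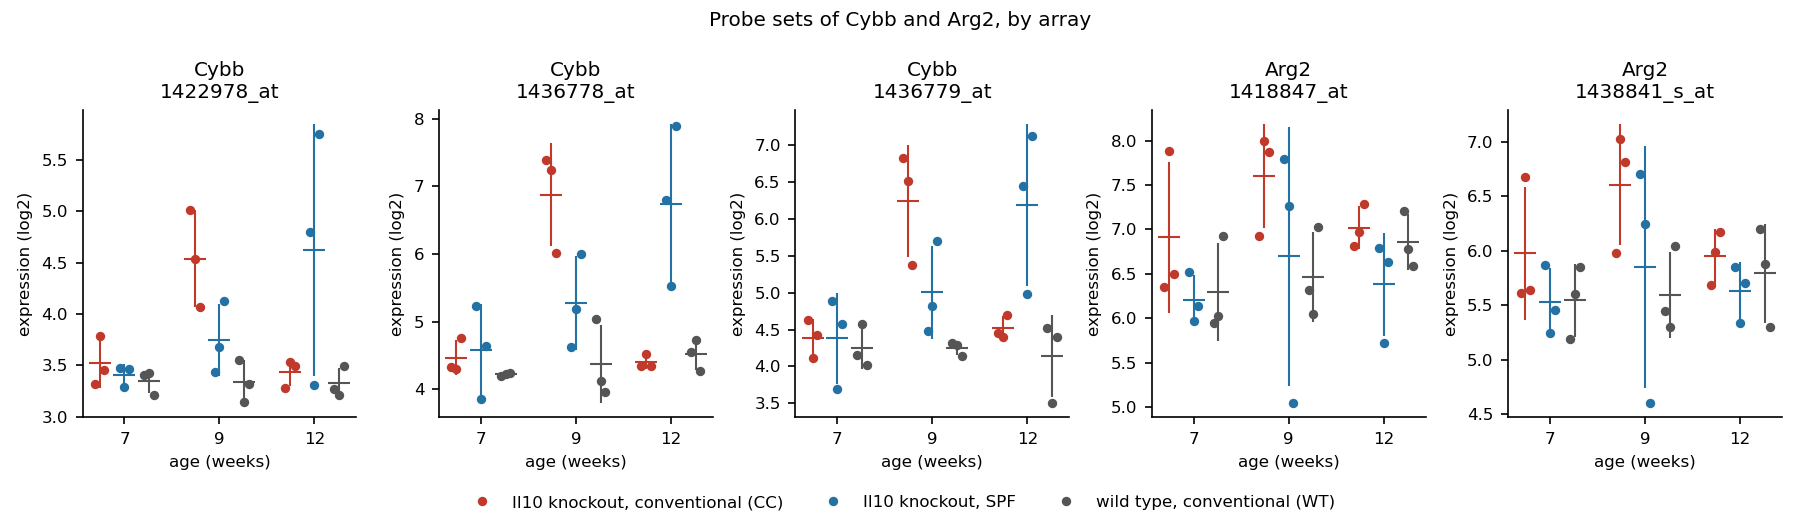
Each point is 1 array (log2 expression) for the 3 probe sets of Cybb and the 2 of Arg2, by age in weeks and kind of mice, with group mean ± SD (n = 3). The Cybb probe sets share their pattern at different heights, and both Arg2 probe sets place 9SPF replicate 3 lowest of all arrays.

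Cyba encodes p22phox, the partner that stabilises Cybb and other oxidases in the membrane. Its chromosome is 8. Its probe set was brighter on average than 94.9% of all probe sets. Cyba had 10.75, 10.91 and 10.14 in 9CC, 9.64, 9.96 and 10.18 in 9SPF, and 9.64, 9.31 and 9.34 in 9WT. 9CC stood wholly above 9WT by 1.17 ± 0.20, or 2.26-fold (adjusted p = 0.00044). All 9SPF arrays also lay above the 9WT arrays, replicate 1 by the narrowest margin, and the difference of 0.50 ± 0.20 did not pass (adjusted p = 0.102). It passed without 12SPF replicate 2, which enters only the estimate of spread (adjusted p = 0.0341).

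Cyba at 12 weeks had 9.54, 9.55 and 9.65 in 12CC, 10.74, 9.95 and 10.93 in 12SPF, and 9.35, 9.22 and 9.14 in 12WT. These 3 groups did not overlap. The arrays of 18.1% of all genes stood apart between 12CC and 12WT. 12SPF exceeded 12WT by 1.30 ± 0.20, or 2.47-fold (adjusted p = 9.25e-05), and 12CC lay below 12SPF by -0.96 ± 0.20 (adjusted p = 0.003). The difference of 12CC from 12WT, 0.34 ± 0.20, did not pass (adjusted p = 0.42). At 7 weeks the arrays of all 3 groups lay between 9.41 and 9.86.

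Ncf4, on chromosome 15, had 7.31, 7.10 and 6.20 in 9CC, 5.57, 5.77 and 6.79 in 9SPF, and 5.60, 5.36 and 5.22 in 9WT. The 9CC arrays stood above 9WT, and 9SPF overlapped both. 9CC exceeded 9WT by 1.48 ± 0.37, or 2.79-fold (adjusted p = 0.00653), a call lost without 9CC replicate 1. 9SPF differed from 9WT by 0.65 ± 0.37 (adjusted p = 0.267).

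Ncf4 at 12 weeks had 5.10, 5.63 and 5.39 in 12CC, 7.10, 5.70 and 7.74 in 12SPF, and 5.04, 5.26 and 5.38 in 12WT. The lowest 12SPF array, replicate 2, lay just above the highest 12CC array. 12SPF exceeded 12WT by 1.62 ± 0.37, or 3.08-fold (adjusted p = 0.00195), a call lost with only the arrays of these 2 groups in the fit (adjusted p = 0.0707). 12CC lay below 12SPF by -1.47 ± 0.37 (adjusted p = 0.00749), a call lost without 12SPF replicate 3. At 7 weeks the group means were 5.35 in 7CC, 5.27 in 7SPF and 5.17 in 7WT, with overlap.

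Arg1, the arginase known from macrophages and liver, lies on chromosome 10, and 40.8% of all probe sets were dimmer on average than its own. It had 4.72, 5.45 and 4.81 in 9CC, 4.63, 4.26 and 4.06 in 9SPF, and 3.96, 3.93 and 3.83 in 9WT. The 3 groups did not overlap. Of all genes, 11.8% stood apart between 9CC and 9SPF, 42.5% between 9CC and 9WT and 37.4% between 9SPF and 9WT. 9CC exceeded 9WT by 1.09 ± 0.30, or 2.13-fold (adjusted p = 0.011), a call lost without 9CC replicate 2. 9SPF differed from 9WT by 0.41 ± 0.30 (adjusted p = 0.399).

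At 12 weeks Arg1 had 4.15, 4.58 and 4.84 in 12CC, 5.85, 4.16 and 5.21 in 12SPF, and 4.17, 3.91 and 4.19 in 12WT. 12SPF replicate 2 lay among the wild types, so the groups overlapped. 12SPF exceeded 12WT by 0.98 ± 0.30, or 1.98-fold (adjusted p = 0.0134), and this call was lost without 12SPF replicate 1, 12SPF replicate 3 or 12WT replicate 2, and with only the 2 groups' arrays (adjusted p = 0.141). Of the 6 members called in 12SPF, only Arg1 was not called lower in 12CC: 12CC differed from 12SPF by -0.55 ± 0.30 (95% interval -1.17 to 0.07, adjusted p = 0.194). Without 12SPF replicate 2 this difference was -1.004 and was called (adjusted p = 0.00382).

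Arg2, the mitochondrial arginase on chromosome 12, had 6.93, 7.99 and 7.88 in 9CC, 7.79, 7.26 and 5.04 in 9SPF, and 6.32, 6.05 and 7.03 in 9WT. The groups overlapped. The difference of 9CC from 9WT was 1.13 ± 0.51 (95% interval 0.07 to 2.19, adjusted p = 0.115). It was called without 9SPF replicate 3 (adjusted p = 0.0321) and with only the 2 groups' arrays (adjusted p = 0.0323). That of 12SPF from 12WT was -0.47 ± 0.51 (95% interval -1.54 to 0.59, adjusted p = 0.52). At 12 weeks Arg2 had 6.81, 6.97 and 7.28 in 12CC, 6.79, 5.72 and 6.64 in 12SPF, and 7.20, 6.78 and 6.58 in 12WT.

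Within the 9SPF group Arg2 and Nos2 stood in opposite order: replicate 3 had the highest Nos2 (6.71) and the lowest Arg2 (5.04) of the group, and replicate 1 had the lowest Nos2 (4.67) and the highest Arg2 (7.79). In 12SPF, by contrast, replicate 2 had the lowest value of both genes (Nos2 5.91, Arg2 5.72). After each group's mean was taken out, Arg2 and Nos2 correlated at r = -0.452 over the 27 arrays, a description that shares arrays and normalization. How far this r rests on the 9SPF arrays was not tested. The second Arg2 probe set gave 1.01 ± 0.39 for 9CC against 9WT (adjusted p = 0.0812, all probe sets tested), and the probe sets correlated at 0.965.

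**Figure D3:**
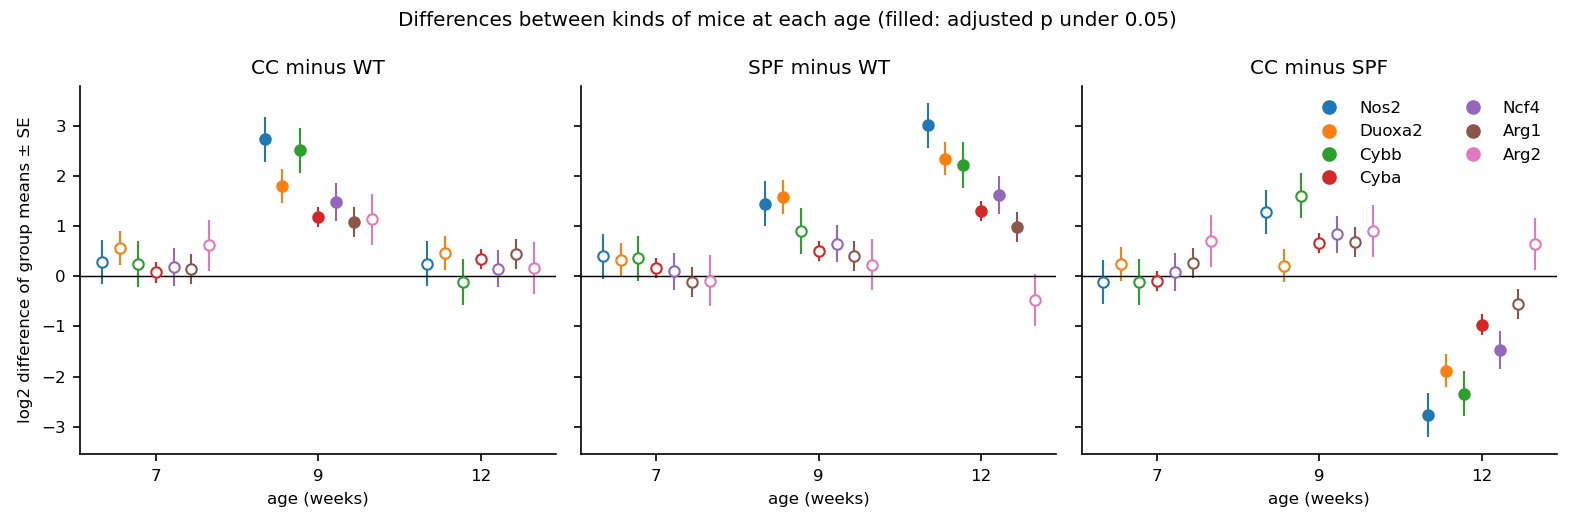
Points give the log2 difference of group means ± SE for each gene, by age in weeks, for CC minus WT, SPF minus WT and CC minus SPF. Filled points passed the test, and the CC minus SPF differences of Nos2, Duoxa2, Cybb, Cyba and Ncf4 are positive at 9 weeks, none of them called, and negative and called at 12 weeks.

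Set against all genes, 6 of 7 members were called higher in 9CC against 9WT, where 24.0% of genes were called and 14.2% called higher. The median difference was 1.48 for the members and 0.000234 for all genes. In 12SPF against 12WT 6 of 7 were called higher, with 34.8% of genes called (18.2% higher), and medians of 1.62 and 0.02. In 9SPF against 9WT 2 of 7 were called higher (Nos2 and Duoxa2), with 11.8% called (7.41% higher). In 12CC against 12SPF 5 of 7 were lower, with 24.6% called (2466 of 18193 genes lower). With only the arrays of those 2 groups 1 of these calls, Duoxa2, was left, and Nos2, Cybb, Cyba and Ncf4 had adjusted p of 0.0996 to 0.129. In that fit 20 of all 18193 genes were called, against 4480 in the fit of all arrays. No member was called in 7CC against 7WT (0.506% of genes called), 7SPF against 7WT (0.055%), 7CC against 7SPF (0.269%), 9CC against 9SPF (0%) or 12CC against 12WT (0.451%). In 9CC against 9SPF 5 members had an unadjusted p under 0.05, as did 1468 of all genes, so the absence of calls in limma's test there is not evidence of equal levels.

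Over age, most members rose and then fell in conventional knockouts. From 7 to 9 weeks 6 of 7 members rose (10.4% of genes called), with Nos2 at 2.58 ± 0.45 (adjusted p = 0.00153), Cybb at 2.41 ± 0.45, Duoxa2 at 1.57 ± 0.34, Ncf4 at 1.52 ± 0.37, Cyba at 1.04 ± 0.20 and Arg1 at 0.97 ± 0.30 (adjusted p = 0.0414). From 9 to 12 weeks 5 fell (7.34% of genes called): Nos2 at -2.56 ± 0.45 (adjusted p = 0.00334), Cybb at -2.48 ± 0.45, Ncf4 at -1.50 ± 0.37, Duoxa2 at -1.43 ± 0.34 and Cyba at -1.02 ± 0.20. Arg1 was at -0.47 ± 0.30 (adjusted p = 0.338). The ages are separate groups of mice, and each was picked for colon damage.

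In SPF knockouts, 1 member, Duoxa2, rose from 7 to 9 weeks (1.60 ± 0.34, adjusted p = 0.0247, 0.726% of genes called). From 9 to 12 weeks none passed (0% of all genes called): Nos2 was at 1.48 ± 0.45 (adjusted p = 0.109) and Cybb at 1.46 ± 0.45 (adjusted p = 0.114), and 5 members and 3431 of all genes had an unadjusted p under 0.05. In wild types no member passed from 7 to 9 weeks (0.0055% of genes called) or from 9 to 12 weeks (0%).

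The change of these differences with age was tested directly. The difference of conventional from SPF knockouts changed between 9 and 12 weeks in 6 of 7 members, where 18.6% of genes were called. It changed by -4.04 ± 0.63 for Nos2 (adjusted p = 0.000856) and -3.94 ± 0.64 for Cybb (adjusted p = 0.00101), and by smaller amounts for Ncf4, Duoxa2, Cyba and Arg1. None of these differences was called at 9 weeks itself, and that of Arg1 was called at neither age. The difference of conventional knockouts from wild types grew from 7 to 9 weeks in Nos2 and Cyba, 2 of 7 members, with 2.01% of genes called. It shrank from 9 to 12 weeks in Nos2 and Cybb, also 2 of 7, with 1.82% called. The difference of SPF knockouts from wild types changed from 9 to 12 weeks in none, nor in any other gene (0%).

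9CC and 12SPF, the 2 groups with the highest means of every measured member except Arg2, were set against each other, although they differ in age and housing together. No member was called (0.011% of genes called). Nos2 differed by -0.20 ± 0.45 (95% interval -1.13 to 0.72), Cybb by 0.14 ± 0.45 (-0.80 to 1.09), Cyba by 0.06 ± 0.20 (-0.36 to 0.48) and Duoxa2 by -0.45 ± 0.34 (-1.14 to 0.25). Arg2 differed by 1.22 ± 0.51 (0.15 to 2.28, adjusted p = 0.558), and each 9CC array (6.93, 7.99 and 7.88) lay above each 12SPF array (6.79, 5.72 and 6.64). The arrays of 7.64% of all genes stood apart between these 2 groups.

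The other genes of superoxide production were taken from a list of 18 oxidase genes, of which 13 were measured and 9 are not members. Of these 9, 3 rose in 9CC against 9WT and the same 3 in 12SPF against 12WT, and none fell. In those comparisons 24.0% and 34.8% of all genes were called, and 14.2% and 18.2% of all genes were called higher. Whether the counts of this short list differ from these shares was not tested. Ncf1, the organising subunit p47phox of the phagocyte enzyme, was at 1.51 ± 0.31 at 9 weeks (adjusted p = 0.00169) and 1.28 ± 0.31 at 12 weeks. Rac2, the GTPase that activates the enzyme in blood cells, was at 1.20 ± 0.32 and 1.43 ± 0.32. Noxo1, the organiser of the epithelial oxidase Nox1, was at 0.50 ± 0.14 and 0.64 ± 0.14. The Duox1 side of the family did not pass: Duox1 was at -0.17 ± 0.15 and -0.03 ± 0.15, and its partner Duoxa1 at -0.04 ± 0.13 and 0.21 ± 0.13. The median of the 9 was 0.28 at 9 weeks and 0.21 at 12 weeks, against 0.000234 and 0.02 over all genes.

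Around Nos2, 14 other measured genes were listed: the other synthases and genes of its cofactor tetrahydrobiopterin, its regulators and its receptor. In 9CC against 9WT 3 of them rose and 3 fell (24.0% of all genes called), and in 12SPF against 12WT 5 rose and 5 fell (34.8%). Gch1, the first enzyme of tetrahydrobiopterin synthesis, rose by 1.18 ± 0.23 in 9CC (adjusted p = 0.00114) and 1.84 ± 0.23 in 12SPF (adjusted p = 1.43e-05), while Qdpr, which recycles the cofactor, fell in 12SPF (-0.61 ± 0.11, adjusted p = 0.00022) and was at -0.25 ± 0.11 in 9CC. Ddah1, which breaks down methylated arginines that inhibit the synthases, was at 1.65 ± 0.34 in 9CC and 1.57 ± 0.34 in 12SPF. The nitric oxide receptor subunits Gucy1a1 (-1.09 ± 0.34 in 9CC, -1.89 ± 0.34 in 12SPF) and Gucy1b1 (-0.87 ± 0.26 and -1.49 ± 0.26) fell. Smooth muscle, which is known to carry this receptor, had 8 of 10 markers called lower in 9CC and 10 of 10 in 12SPF. Of all 18193 genes, 1793 were called lower in 9CC against 9WT and 3024 in 12SPF against 12WT. The smooth muscle markers had list means of 10.60 to 10.69 in 9CC against 11.31 to 11.42 in 9WT. In 12SPF these markers had list means of 9.36 to 10.72, against 11.14 to 11.21 in 12WT. Their part in the result was not tested. The neuronal synthase Nos1 fell by 0.45 ± 0.16 in 9CC (adjusted p = 0.0414) and by 0.47 ± 0.16 in 12SPF (adjusted p = 0.0248). The endothelial Nos3 rose in 12SPF (0.69 ± 0.21, adjusted p = 0.0125) and was at 0.29 ± 0.21 in 9CC.

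Of 16 other genes of arginine transport, the urea cycle and polyamines, 4 rose and 1 fell in 9CC against 9WT (24.0% of all genes called), and 6 rose and 3 fell in 12SPF against 12WT (34.8%). Slc7a1, an importer of arginine, rose by 0.85 ± 0.26 in 9CC and 0.93 ± 0.26 in 12SPF. Srm, the spermidine synthase, rose by 1.14 ± 0.27 and 1.51 ± 0.27, and the spermine oxidase Smox, which yields hydrogen peroxide, by 0.82 ± 0.15 and 1.09 ± 0.15. Oat, which turns ornithine toward glutamate and proline, fell (-0.59 ± 0.17 and -0.96 ± 0.17). The urea cycle enzyme Otc fell in 12SPF (-2.85 ± 0.58, adjusted p = 0.000742) and was at -0.67 ± 0.58 in 9CC. Odc1, the ornithine decarboxylase downstream of arginase, was at 0.52 ± 0.20 in 9CC (adjusted p = 0.0592) and 0.65 ± 0.20 in 12SPF (adjusted p = 0.0128).

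**Figure D4:**
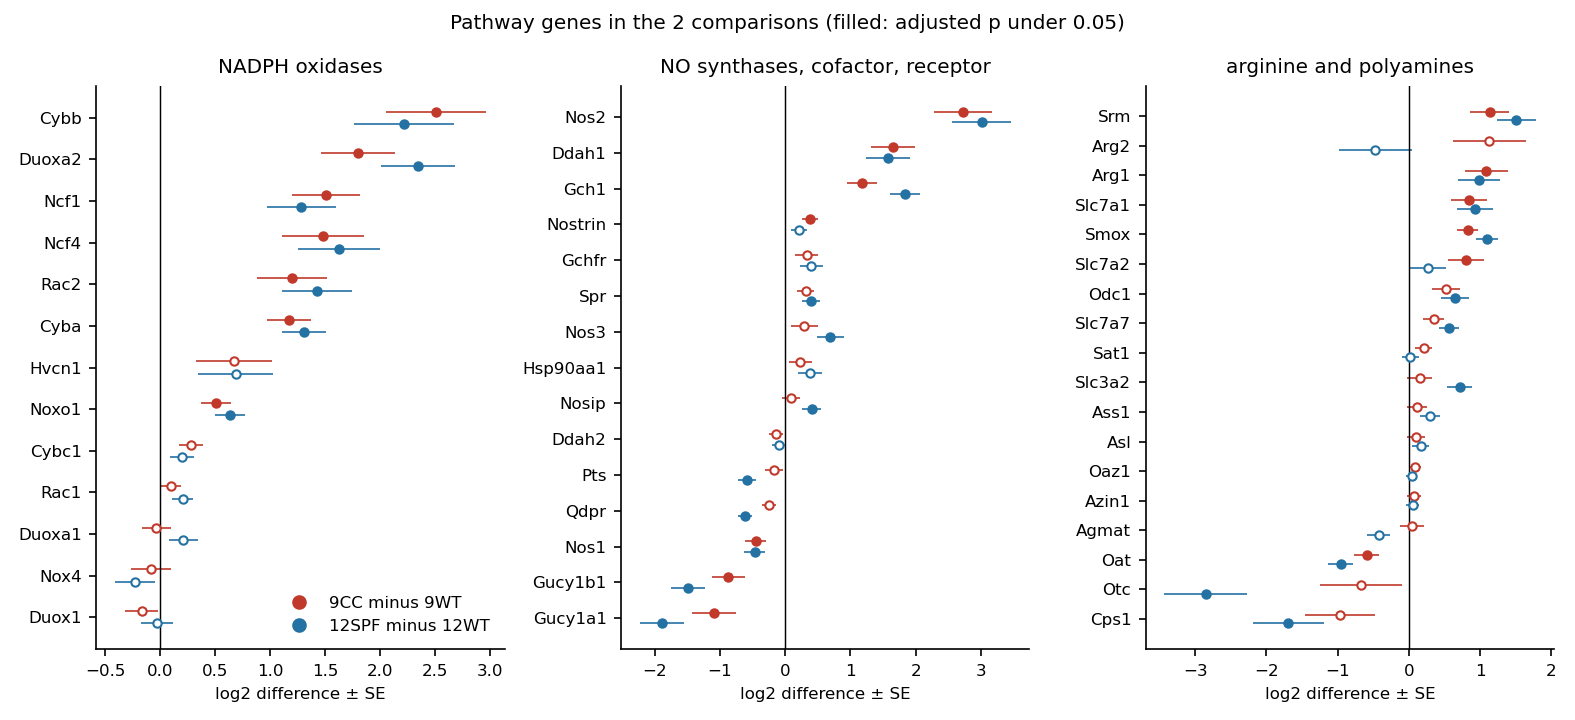
Each row is a gene of 3 pathway lists, with its log2 difference ± SE for 9CC minus 9WT and 12SPF minus 12WT, and filled points passed the test. Cybb, Duoxa2 and Nos2 lead their lists at 1.80 to 3.01, Duox1 and Duoxa1 lie near 0, and Arg2 is positive in 9CC and negative in 12SPF without passing.

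A further list held enzymes that remove superoxide and peroxide, and related genes such as the regulators Nfe2l2 and Keap1. Of 23 measured genes, 8 rose and 1 fell in 9CC against 9WT, and 12 rose and 5 fell in 12SPF against 12WT, where 24.0% and 34.8% of all genes were called. Gpx2, the glutathione peroxidase of gut epithelium, rose by 1.46 ± 0.26 and 1.54 ± 0.26, Gpx3 by 0.80 ± 0.17 and 0.95 ± 0.17, and the thioredoxin reductase Txnrd1 by 0.63 ± 0.14 and 0.73 ± 0.14. Catalase (Cat) was the gene that fell in 9CC (-0.76 ± 0.25) and it fell in 12SPF as well (-1.17 ± 0.25). Of the haem peroxidases 0 of 4 were called in 9CC (limma), and in 12SPF 1, Pxdn, was lower (-0.48 ± 0.16). The neutrophil enzyme Mpo was at 0.05 ± 0.15 in 12SPF.

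Markers of phagocytes rose in 9CC and 12SPF, where 6 of 7 members were called higher. Of all genes, 24.0% were called in 9CC against 9WT (14.2% higher) and 34.8% in 12SPF against 12WT (18.2% higher). Of 16 macrophage and monocyte markers, 14 rose in 9CC against 9WT and 14 in 12SPF against 12WT, with list means of 7.72 to 8.26 in 9CC against 6.41 to 6.85 in 9WT, and 7.44 to 8.65 in 12SPF against 6.44 to 6.59 in 12WT. Of 13 neutrophil markers, 5 and 9 rose, with list means of 5.02 to 5.73 in 9CC against 3.67 to 3.79 in 9WT, and 4.43 to 7.02 in 12SPF against 3.62 to 3.80 in 12WT. The neutrophil markers with the largest differences were S100a8 (6.98 ± 1.12 in 9CC, 7.35 ± 1.12 in 12SPF), S100a9 (6.65 ± 1.18 and 6.97 ± 1.18) and Fpr2 (3.88 ± 0.77 and 3.74 ± 0.77). Of the granule genes, Ltf (1.89 ± 0.50 and 2.55 ± 0.50) and Mmp9 (1.46 ± 0.44 and 2.20 ± 0.44) rose in both, and Ngp (1.76 ± 0.39) and Mmp8 (1.46 ± 0.33) in 12SPF, while Mpo (0.09 ± 0.15 and 0.05 ± 0.15) and Elane (-0.29 ± 0.11 and -0.17 ± 0.11) did not pass. Macrophage list means were also higher in 7CC (6.94 to 7.01) than in 7WT (6.32 to 6.67). They were higher in 12CC (6.86 to 7.09) than in 12WT (6.44 to 6.59). No member was called in either comparison (0.506% and 0.451% of genes called), and neutrophil list means overlapped those of wild types. In 9SPF, 2 of 16 macrophage markers and 0 of 13 neutrophil markers were called against 9WT (limma), where 11.8% of all genes were called. The 9SPF replicate on which the Nos2 and Duoxa2 calls depended, replicate 3, had a neutrophil mean of 5.10, against 3.71 and 3.85 in replicates 1 and 2, and a macrophage mean of 7.44, against 6.80 and 7.30. Within 12SPF, replicate 2 had the lowest macrophage mean (7.44), the lowest neutrophil mean (4.43) and the lowest value of all 7 members, Arg2 included. More cells of a type and more RNA per cell cannot be told apart in whole tissue, and the part of these markers in the members' differences was not tested.

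The genes whose values ran most like each member's over the 27 arrays were named by Pearson's r, a description in which the differences between groups are shared. For Cybb they were Tyrobp, Ly86, Clec7a, Itgb2 and Clec4n (r = 0.972 to 0.979), which are known from myeloid cells. For Ncf4 they were Slamf8, Itgal, Csf2rb, Lcp1 and Gpr171 (0.973 to 0.983), and for Cyba Ifitm1, Fcer1g, Fes, Slamf8 and Itgb2 (0.963 to 0.972). For Nos2 they were the chemokine genes Cxcl5 and Cxcl10, with Ckap4, Socs1 and Sh3bp2 (0.966 to 0.975). For Duoxa2 they were Mfsd2a, Tnfrsf1b, Phgdh, Cxcl10 and Trim40 (0.956 to 0.963). Arg1 had lower values (0.833 to 0.846 for Epb41l2, Slc11a1, Cyp4f18, Gpr132 and Ocstamp), and Arg2 the lowest, with the interleukin 1 receptor Il1r1 at 0.695, then Zranb3, Abca12, Acacb and Spns2 down to 0.625.

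Among the members themselves, Cybb, Cyba and Ncf4 correlated at 0.935 to 0.967 over all arrays and at 0.841 to 0.917 after group means were taken out. Nos2 with these 3 gave 0.911 to 0.933, and 0.564 to 0.763 after group means were taken out. Nos2 with Duoxa2 gave 0.927 and 0.694. Arg1 with Nos2 gave 0.655 and -0.045, and Arg1 with Arg2 0.506 and 0.541. These are descriptions over the same 27 arrays.

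**Figure D5:**
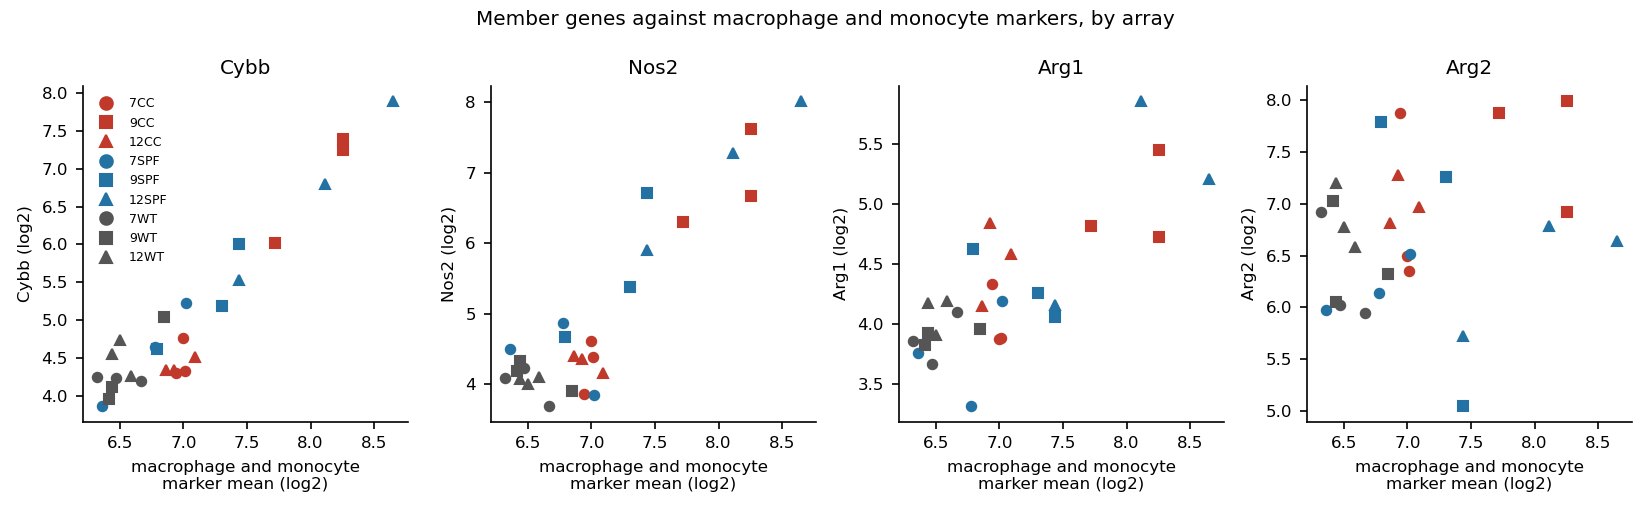
Each point is 1 array, with the mean log2 of 16 macrophage and monocyte markers across and the log2 expression of Cybb, Nos2, Arg1 or Arg2 up, coloured by kind of mice and shaped by age. 12SPF replicate 3 lies highest in Cybb (7.89) and Nos2 (8.02), and the Arg2 values show no such order.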

How the data were processed

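Expression was measured on 1-colour Affymetrix arrays, 1 per sample. The deposited files hold log2 values, which the authors normalized with affyPLM, per the series' design text, without stated settings. A rat array is named there, whereas the identifiers are those of a mouse array. Of 45101 probe sets, 64 controls were left out. The 34945 with 1 symbol gave 18193 genes, each read by its probe set with the highest mean, with no filter on dim genes. The 932 with several symbols named no member, and 9160 had none.

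limma 3.58.1 (R 4.3.3) fitted 9 group means (18 residual degrees of freedom), and contrasts were tested two-sided with eBayes and Benjamini-Hochberg adjustment over all genes. Chromosomes and promoter windows are RefSeq's (GRCm38.p6). The files name no scan date or batch. The members, lists and naming rules were chosen with earlier results of these data known. Of the list genes, text names members and up to 4 called non-members per list with the smallest adjusted p, and other genes named were chosen after their values were seen. Tested on simulated data for 9CC against 9WT (18193 genes), the fit recovered 91 of 100 genes that had been given a change of 1 on the log2 scale. It made 9 false calls. In the simulation few genes changed, in 9CC only, and each gene had the same spread in every group. In the real arrays 24.0% of genes were called and the spread differed between groups, so this recovery does not describe them. Alternatives were a replicate block, quantile normalization, median centring, a dim filter, all probe sets, probe set means, only the groups compared, and leaving out each array. Figures used Python 3.11.15 and matplotlib 3.10.9.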

Additional observations from a re-analysis of the deposited data

Results flagged for a closer look

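Differences between kinds of mice that changed with age, tested as a difference of differences in limma, were picked out for a closer look. Between 9 and 12 weeks the difference of conventional from SPF knockouts changed by -4.04 for Nos2, -3.94 for Cybb, -2.30 for Ncf4, -2.09 for Duoxa2, -1.63 for Cyba and -1.23 for Arg1 on the log2 scale (adjusted p from 0.000856 to 0.0458). The difference of conventional knockouts from wild types changed from 7 to 9 weeks by 2.45 for Nos2 (adjusted p = 0.0473) and 1.10 for Cyba (adjusted p = 0.0477). From 9 to 12 weeks it changed by -2.48 for Nos2 (adjusted p = 0.0471) and -2.62 for Cybb (adjusted p = 0.043). The alternatives and leave-outs were not run for these changes with age.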

How the results depend on the processing

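Over alternatives other than leaving out an array, 405 of 414 values of a member in a comparison of kinds at 1 age kept their side of the threshold, 8 lost a call, 1 gained one, and no called value turned its sign. The dim filter removed Nos2, Cybb and Arg1, which by construction left 3 members called in 9CC against 9WT, 3 in 12SPF against 12WT, 3 in 12CC against 12SPF and 1 in 9SPF against 9WT. With only the 2 groups' arrays, which leaves fewer degrees of freedom, 1 member was called in 12CC against 12SPF, 1 in 9SPF against 9WT and 4 in 12SPF against 12WT (Ncf4 and Arg1 lost), and Arg2 was gained in 9CC against 9WT. In those fits 20, 1440, 1321 and 4759 of all 18193 genes were called, in the same order. In the main fit the numbers were 4480, 2155, 6329 and 4375. With the replicate block 1 was called in 9SPF against 9WT, Nos2 being lost (adjusted p = 0.0523), and 1881 of all genes were called. No pairing of arrays by replicate number was seen, and 4 of 27 same-numbered pairs correlated above 0.1 (-0.438 to 0.264). Pairs of unlike number reached 0.497, so with 3 arrays per group a pairing is not excluded. The block changed no other call. Leaving out each array gave 5 to 7 members in 9CC against 9WT, 0 to 3 in 9SPF against 9WT (0 without 9SPF replicate 3), 0 to 2 in 9CC against 9SPF (2 without 12SPF replicate 2), 5 to 6 in 12SPF against 12WT, 4 to 6 in 12CC against 12SPF, and 0 in the other 4 comparisons of kinds. Over these leave-outs the number of all genes called moved too. It ran from 2119 to 5058 in 9CC against 9WT and from 283 to 3023 in 9SPF against 9WT. It ran from 0 to 185 in 9CC against 9SPF, 4533 to 7339 in 12SPF against 12WT and 1357 to 6246 in 12CC against 12SPF. No detection calls were used, so differences of dim probe sets may be understated.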
